A study of Mus musculus with 40 samples.

Results

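Lung tips are the rounded distal ends of the branching airway tree of the embryo. The data described here are transcript levels in mouse lung tip epithelial cells at 4 stages spaced 1 day apart, from E10.5 to E13.5 (E for embryonic day), with 1 library per stage. These 4 libraries were chosen by their sample titles, and they are 4 of the 40 libraries of the series. The wider study grew branching lung organoids from primary tip epithelial cells and profiled them by RNA sequencing, and the tips are uncultured tissue of the kind such cultures start from. All 4 tips carry the same labels apart from stage: mouse, lung epithelium, lung tip epithelial cells, with no treatment, transgene or mutation named. The labels give no strain, no number of embryos and no method of dissection, and the extraction protocol attached to the tips describes organoids. The question the stages allow is which transcripts differ in level along 3 days of branching.

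The mouse lung bud forms from ventral foregut endoderm marked by the transcription factor Nkx2-1. Its branching tips are kept as progenitors by FGF10 from the surrounding mesenchyme, acting through the receptor FGFR2 and the factors ETV4, ETV5 and SOX9. In the stages sampled, tips branch repeatedly and leave behind stalk cells that will form airways, while alveolar cells arise later from the same tips. The RNA-binding proteins LIN28A and LIN28B block the maturation of let-7 microRNAs and are known for holding embryonic tissues in an early state.

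Levels are given in TPM, a unit that gives each gene's share of the transcripts in a library after correction for transcript length. A difference between libraries is given on the scale of log2(TPM + 1), which understates differences of genes of low level. The change over embryonic day is the slope of a straight line through the 4 tips multiplied by the 3 days between the first and the last, with its standard error (SE) from the scatter around the line. With 1 library per stage, that scatter mixes technical noise, differences between embryos and any course that is not straight. Sequencing depth is unknown, because TPM keeps none. Genes were tested where at least 1 tip reached 5 TPM, which held for 11546 of 55260 genes listed. This filter favours a negative slope in genes that reached 5 TPM only in earlier tips. In genes that reached it only in later tips it favours a positive slope.

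The tips listed 13424 to 14216 genes at 1 TPM or more, and mitochondrial genes made up 6.54 to 8.29% of TPM. Their label held against epithelial markers. Nkx2-1 was listed at 334, 365, 319 and 348 TPM from E10.5 to E13.5, and all 18 epithelial and lung identity genes passed 5 TPM, with a summed level of 3115 to 3722 TPM. Markers of other cells were present too. The 18 mesenchymal markers summed to 331, 549, 372 and 403 TPM, none was at 0 in any tip, and 11 of 18 were highest at E11.5. Vim was the highest of them, at 117, 163, 198 and 254 TPM, and it weighs on the sums of the later tips. Of the 13 mesenchymal markers tested, 9 had a negative slope and 4 a positive one. All 11 endothelial markers were highest at E11.5, with sums of 35.5, 92.3, 40.3 and 36.2 TPM. Red cell genes summed to 7019, 5619, 11700 and 2279 TPM, and 8 of 10 were highest at E12.5. Immune markers summed to between 4.1 and 16.2 TPM, neural and crest markers to between 5.29 and 14.4 TPM, mesothelial markers to between 3.97 and 9.51 TPM, and markers of liver, gut, pancreas and thyroid to between 18.4 and 42.8 TPM. Xist, made from the inactive X chromosome, and 4 Y-linked genes were above 4 TPM in every tip. In bulk samples, fewer cells of a type and less RNA per cell cannot be told apart.

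**Figure D1:**
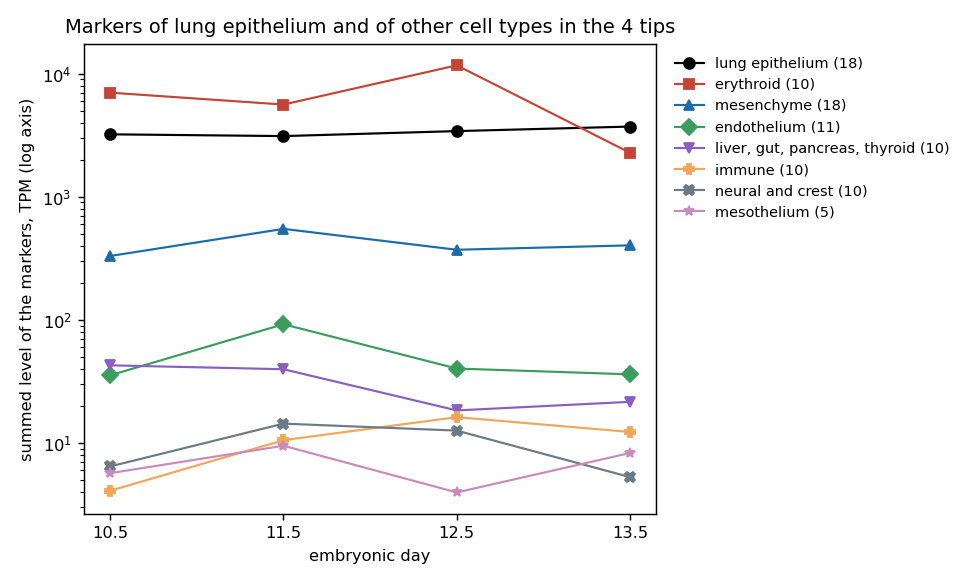
Summed level of marker lists in TPM (log axis) against embryonic day, 1 library per point, with the number of markers in brackets. Lung epithelium stays between 3115 and 3722 TPM, endothelium and mesenchyme are highest at E11.5, and erythroid genes are highest at E12.5 (11700 TPM) and lowest at E13.5 (2279 TPM).

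The distance between tips did not simply follow stage. Pearson correlations across genes on log2(TPM + 1) ran from 0.916 (E11.5 with E13.5) to 0.948 (E12.5 with E13.5). E10.5 with E12.5 stood at 0.937, and E11.5 stood at 0.935 with E10.5 and at 0.935 with E12.5. The neighbouring tips E10.5 and E11.5 differed at least 2-fold, with 5 TPM or more in the higher library, in 622 genes (5.39% of those tested), of which 402 (3.48%) were higher and 220 (1.91%) lower at E11.5. Between E11.5 and E12.5, 802 genes (6.95%) were past 2-fold, 200 (1.73%) higher and 602 (5.21%) lower at E12.5. The step from E12.5 to E13.5 held 520 genes (4.5%), 243 (2.1%) higher and 277 (2.4%) lower. Across the whole series of days, from E10.5 to E13.5, 954 genes (8.26%) were past 2-fold, 362 higher (3.14%) and 592 lower (5.13%) at E13.5. E10.5 and E12.5 differed past 2-fold in 641 genes, fewer than the neighbours E11.5 and E12.5. E11.5 and E13.5 differed in 1086 genes, more than E10.5 and E13.5.

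Some genes were at least 2-fold above, or below, each of the other 3 tips. At E10.5 there were 155 such genes (1.34%), 96 above (0.831%) and 59 below (0.511%). At E11.5 there were 220 (1.91%), 172 above (1.49%) and 48 below (0.416%). At E12.5 there were 99 (0.857%), 48 above (0.416%) and 51 below (0.442%). At E13.5 there were 253 (2.19%), 85 above (0.736%) and 168 below (1.46%). The E11.5 tip was most often alone above the rest and the E13.5 tip most often alone below. The split at E13.5 turned with the handling of low levels, to 48 above and 44 below with a pseudocount of 5 TPM and to 265 above and 226 below without a filter on low values. At E12.5 it was 28 above and 15 below with that pseudocount, and 266 and 78 without the filter.

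The direction of these steps depended in part on scaling. Over all genes, the median difference from E11.5 to E12.5 was -0.11, and 0.02 after median-ratio rescaling. Among the genes past 2-fold, the share higher at the later stage was 64.6% for E10.5 to E11.5 and 52.9% after quantile normalization. For E11.5 to E12.5 it was 24.9%, against 34.8% after median-ratio rescaling and 42.2% after quantile normalization. Among genes set apart in 1 tip, quantile normalization moved the share lying above from 78.2 to 60.5% at E11.5, from 48.5 to 59.8% at E12.5 and from 33.6 to 46.0% at E13.5. These counts compare single libraries, so no p-value was computed for them.

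**Figure D2:**
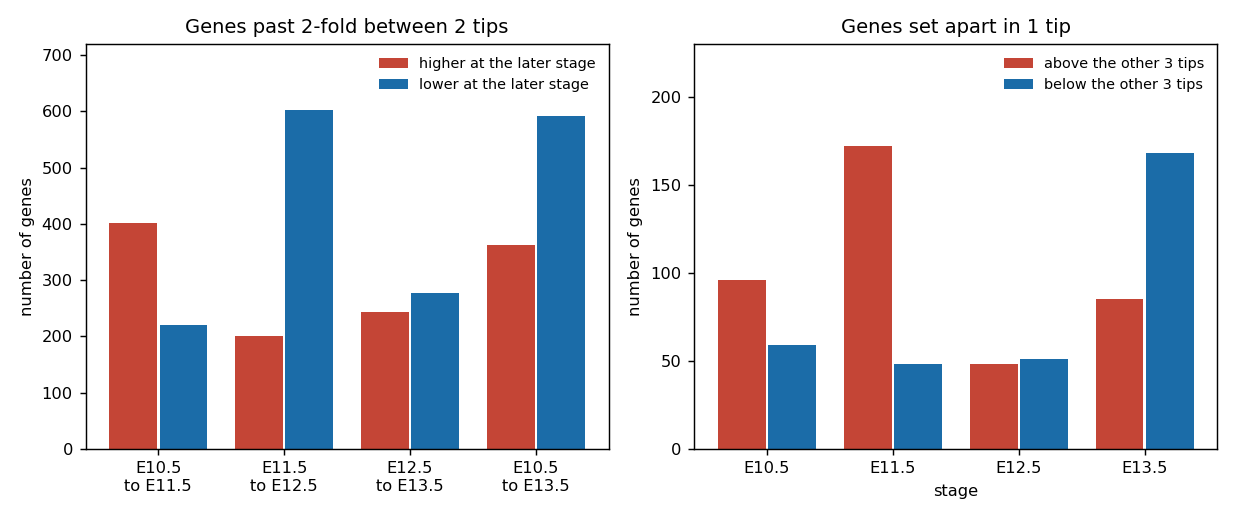
Left, number of genes at least 2-fold higher (red) or lower (blue) at the later of 2 tips; right, number of genes at least 2-fold above (red) or below (blue) each of the other 3 tips. The step from E11.5 to E12.5 has 602 lower and 200 higher genes, and 172 genes are set above the rest at E11.5.

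By limma with Benjamini-Hochberg adjustment over the 11546 genes, no gene had a slope over embryonic day at adjusted p under 0.05 (0% called). At an unadjusted p under 0.05 there were 1255 genes (10.9%), 563 higher (4.88%) and 692 lower (5.99%) with day, and the median change of all genes was -0.03. The slope was positive in 5286 genes and negative in 6260, the background for the counts of slopes in the lists below. For list counts at an unadjusted p under 0.05 the background is 4.88% higher and 5.99% lower. For list counts past 2-fold from E10.5 to E13.5 the background is 3.14% higher and 5.13% lower. The smallest adjusted p belonged to Mia, a small secreted protein. Mia was listed at 44.1, 69.5, 134 and 232 TPM, higher at every step, with a change of 2.41 ± 0.15 (SE; limma adjusted p = 0.0813). Robust variance moderation called 1 gene, Mia, at an adjusted p of 0.0185. Leaving out the E10.5 tip called 5 genes: Slc2a3 (change over 3 days -7.84, adjusted p = 0.000841), the predicted gene Gm37614, Peg10, Asb4 and Fmod. Leaving out the E13.5 tip called 1, the ribosomal protein copy Rpl14-ps1, and leaving out the E11.5 or the E12.5 tip called none. The values below are therefore levels in single libraries and slopes that did not pass the test. Wherever a tip was left out, the slope through the remaining tips was still multiplied by 3 days. Without the E10.5 or the E13.5 tip this extends the line beyond the tips used. Such changes can be larger than any difference between measured tips.

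A gene can move one way at all 3 steps. Of the genes tested, 727 (6.3%) were higher at each step and 670 (5.8%) lower at each step. Of these, 130 (1.13%) and 198 (1.71%) also differed at least 2-fold between E10.5 and E13.5. Among the 198, the largest step was the last in 94, the middle in 58 and the first in 46. Among the 130 it was the middle in 53, the last in 44 and the first in 33.

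**Figure D3:**
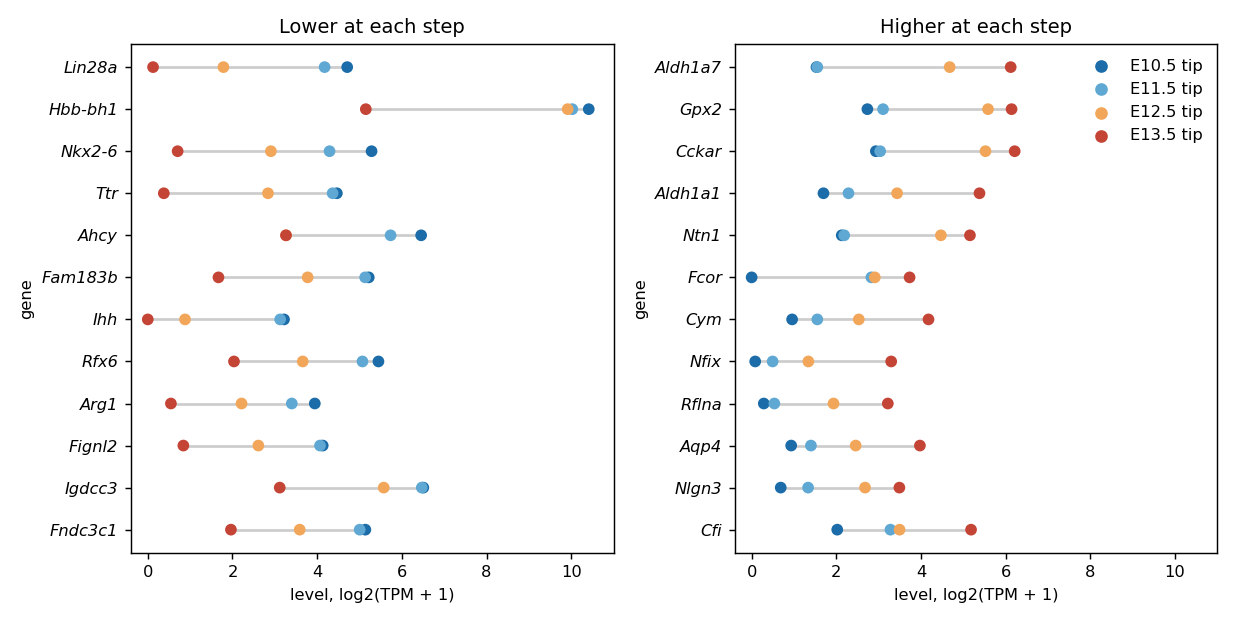
Level in log2(TPM + 1) of the 12 genes with the largest slope among those lower at each step (left) and higher at each step (right); each point is 1 tip, coloured by stage. In most of the genes on both sides the E10.5 and E11.5 points lie close together, and the E12.5 and E13.5 points lie apart from them.

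The genes with the largest change among those higher at each step were led by an aldehyde dehydrogenase. Aldh1a7 (chromosome 19, 20692953 to 20727562, GRCm38) was listed at 1.89, 1.93, 24.6 and 68.4 TPM, a change of 5.07 ± 0.78 (SE; limma adjusted p = 0.18). The first pair of tips lay near 2 TPM and the later pair far above. Aldh1a1, which makes retinoic acid from retinal, was listed at 2.24, 3.88, 9.81 and 40.7 TPM (change 3.66), with its largest step at the end. Aldh1a7 and Aldh1a1 are close paralogs on the same chromosome, so reads could be shared between them and their separate levels are uncertain.

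Gpx2, a glutathione peroxidase of endodermal epithelia, was listed at 5.65, 7.59, 46.9 and 69.4 TPM (change 3.81 ± 0.55 SE). Cckar, a receptor for the gut hormone cholecystokinin, was listed at 6.64, 7.20, 44.9 and 73.1 TPM (change 3.70). Ntn1, the secreted guidance protein netrin 1, was listed at 3.37, 3.55, 21.1 and 34.6 TPM (change 3.41). All 3 had their largest step between E11.5 and E12.5. Cfi, complement factor I, was listed at 3.06, 8.70, 10.3 and 35.3 TPM (change 2.91). The remaining members of this group stayed under 18 TPM at E13.5: Fcor, Cym, the transcription factor gene Nfix, Rflna, the water channel gene Aqp4 and the neuroligin gene Nlgn3, with changes of 2.93 to 3.38.

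Among genes lower at each step, the largest change was that of Lin28a, described with its partners below. Nkx2-6 (chromosome 14, 69171802 to 69175518), a homeobox gene of the pharyngeal foregut, was listed at 38.0, 18.6, 6.50 and 0.63 TPM, a change of -4.54 ± 0.46 (SE; limma adjusted p = 0.144). Each step was a larger ratio than the one before. Rfx6, a transcription factor of gut and pancreatic endoderm, was listed at 42.6, 32.6, 11.6 and 3.10 TPM (change -3.49 ± 0.43 SE). Ihh, the hedgehog ligand of gut endoderm, was listed at 8.30, 7.73, 0.84 and 0 TPM. Ttr, a serum carrier made by liver and other endoderm, was listed at 21.1, 19.6, 6.15 and 0.30 TPM, and the liver genes Alb (at most 0.48 TPM) and Hnf4a (at most 1.28 TPM) stayed low in every tip. Arg1, Fam183b, Fignl2 and Fndc3c1 had changes of -3.60 to -3.28.

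The group also held genes whose level needs care. Ahcy, the hydrolase that clears S-adenosylhomocysteine, was listed at 86.7, 52.2, 8.62 and 8.60 TPM, while its processed copy Gm4737 was listed at 115, 177, 234 and 220 TPM. Their sum was 202, 229, 243 and 228 TPM. Reads could be shared between the copies, and how they were split was not tested. Hbb-bh1, an embryonic globin of red cells, was listed at 1362, 1040, 965 and 34.5 TPM. It belongs to the red cell genes that were lowest at E13.5 as a set.

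The core identity of the tips showed little difference between stages. Sox9, the tip progenitor factor, was listed at 110, 122, 108 and 124 TPM (change 0.11, limma adjusted p = 0.87). The FGF-responsive factor gene Etv5 was listed at 594, 551, 669 and 749 TPM, the receptor gene Fgfr2 at 262, 206, 244 and 294 TPM, and the ligand genes Shh at 159, 155, 143 and 134 TPM and Wnt7b at 446, 429, 396 and 377 TPM. No member of the 12 distal tip genes was past 2-fold between E10.5 and E13.5, and their median change was -0.28 (-0.17 without the E12.5 tip). Id2, an inhibitor of helix-loop-helix factors, was the lowest of them in change, at 418, 379, 281 and 278 TPM (-0.66). Bmp4 was listed at 96.4, 186, 102 and 124 TPM, high at E11.5 alone.

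Epithelial identity genes leaned slightly higher. Of the 18, 12 had a positive slope, 2 were past 2-fold higher, none was past 2-fold lower and the median change was 0.14 (0.26 without the E10.5 tip). The keratin gene Krt19 was listed at 18.2, 27.8, 32.6 and 52.8 TPM, and the Iroquois factor gene Irx5 at 46.5, 49.7, 76.1 and 104 TPM. Both were higher at every step. Epcam, the epithelial adhesion gene, was listed at 423, 389, 515 and 640 TPM, and Foxa2 at 129, 133, 137 and 137 TPM.

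Airway genes were scarce. Of 10 proximal airway genes only Sox2 and Tspan8 reached 5 TPM, and the club cell genes Scgb1a1 and Cyp2f2 and the mucin gene Muc5b were at 0 in all tips. Sox2, which marks the stalk, was listed at 9.65, 4.05, 10.2 and 10.0 TPM, with the E11.5 tip lowest.

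Surfactant genes did not share one course. Sftpc, the gene of surfactant protein C and the earliest marker of the alveolar type 2 lineage, was listed at 37.0, 39.3, 191 and 210 TPM, a change of 2.90 (limma adjusted p = 0.20). The later pair of tips lay far above the earlier pair, with nearly all of the difference between E11.5 and E12.5. Sftpb was listed at 45.6, 48.0, 25.9 and 35.3 TPM, Sftpa1 at 22.9, 22.8, 10.1 and 21.6 TPM, and the lipid transporter gene Abca3 at 33.1, 38.6, 26.2 and 24.9 TPM. These 3 were not higher at the later stages. Of 18 alveolar type 2 genes, 9 were tested, 2 were past 2-fold higher and the median change was 0.39. That median rested on the E13.5 tip and on the filter: it was 0.09 without that tip and -0.10 without a filter on low values. Lgi3 was the other gene past 2-fold, at 15.0, 12.8, 31.6 and 37.0 TPM, and the mature genes Sftpd and Napsa were at 0.

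Alveolar type 1 genes leaned one way. All 11 of 15 that were tested had a positive slope, 3 were past 2-fold higher at E13.5 and the median change was 0.50. It was 0.82 without the E10.5 tip and 0.36 without a filter on low values. Sema3e and Cav1 passed the filter only through later tips, which favours a positive slope. Sema3e, a secreted semaphorin, was listed at 2.42, 3.43, 7.13 and 17.3 TPM (change 2.44). Rtkn2, a gene marking type 1 cells, was listed at 7.10, 10.8, 13.9 and 19.9 TPM (change 1.33). The caveolin gene Cav1, which endothelium also expresses, was listed at 1.24, 0.70, 2.51 and 12.1 TPM. The part of endothelial cells, whose marker sums are given above, was not tested. Ager, the defining receptor of mature type 1 cells, was listed at 13.48, 13.03, 14.56 and 22.41 TPM, and Pdpn at 14.5, 15.4, 13.0 and 23.0 TPM. The water channel gene Aqp5 was at most 0.89 TPM.

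**Figure D4:**
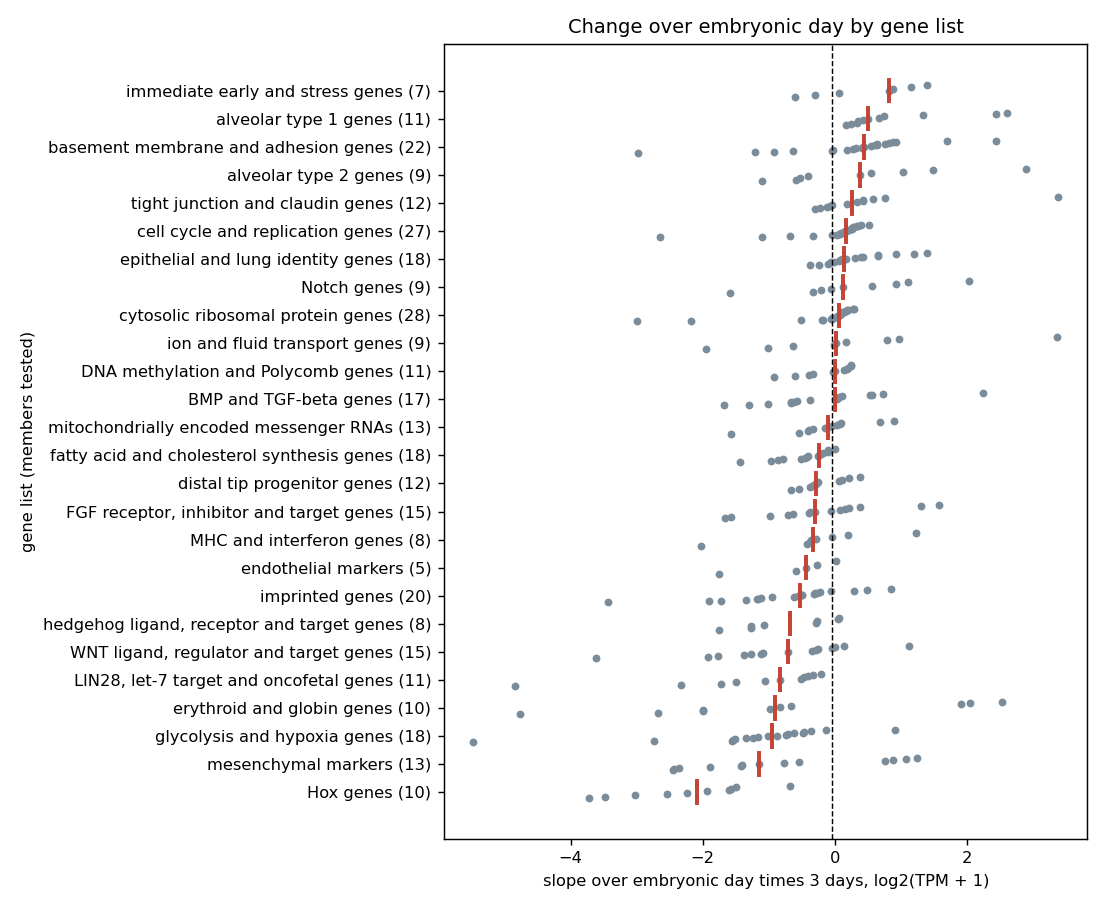
Change over embryonic day (slope times 3 days, log2(TPM + 1)) of each tested member of the gene lists with 5 or more tested members; grey points are genes, red bars are list medians and the dashed line is the median of all 11546 genes (-0.03). Hox genes have the lowest median (-2.08), followed by mesenchymal markers (-1.14), glycolysis genes (-0.94), erythroid genes (-0.90) and LIN28 targets (-0.82).

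LIN28 and its partners were lower with day. Lin28a (chromosome 4, 134003330 to 134018841) was listed at 25.1, 17.1, 2.45 and 0.09 TPM, a change of -4.84 ± 0.63 (SE; limma adjusted p = 0.18). It was lower at each of the 3 steps and close to 0 at E13.5. Its paralog Lin28b was listed at 14.8, 15.3, 9.13 and 2.10 TPM (change -2.32), level over the first pair of tips and lower afterwards. Trim71, a let-7 target that encodes an RNA-binding ubiquitin ligase, was listed at 19.1 TPM at E10.5, 18.3 at E11.5 and 5.03 at E13.5 (change -1.72), with E12.5 between them.

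The related oncofetal genes had smaller differences. Arid3b was listed at 34.7, 31.8, 23.9 and 16.4 TPM. The messenger RNA binding protein gene Igf2bp1 was listed at 87.7, 99.7, 75.2 and 50.7 TPM, and the chromatin protein gene Hmga2 at 445, 523, 348 and 344 TPM. Igf2bp2, Igf2bp3, Hmga1 and Dnmt3b had changes of -0.47 to -0.21. In all, 11 of 12 listed genes were tested, all 11 had a negative slope, 7 had an unadjusted p under 0.05, 4 were past 2-fold lower and the median change was -0.82. Leaving out the E10.5 tip gave a median of -1.38 and leaving out the E13.5 tip one of -0.53. The list was drawn up around known let-7 targets with results of these data in view, so its direction is no independent evidence.

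Members of the list are known let-7 targets, so the mature let-7 sequences and the matching sites are shown together. The mature microRNAs are from RefSeq (GRCm38.p6), with bases 2 to 8, the seed, in capitals. Of 10 distinct let-7 sequences in that table, 9 share the seed GAGGUAG.
let-7a-5p: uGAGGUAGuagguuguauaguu
let-7b-5p: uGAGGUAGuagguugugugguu
let-7g-5p: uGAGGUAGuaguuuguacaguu
let-7i-5p: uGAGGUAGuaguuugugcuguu
MicroRNA levels were not measured in these libraries.

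The reverse complement of the seed is CTACCTC, and an A after it gives the 8-letter match CTACCTCA. Sites were searched on the sense strand of the longest annotated 3′ UTR of each gene in GENCODE M21 (GRCm38). The windows below are 30 bases long, 5′ to 3′ on the strand of the gene, and end with the match in capitals.
Lin28a, chr4:134005189-134005218, minus strand: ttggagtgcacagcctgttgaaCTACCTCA
Lin28a, chr4:134004551-134004580, minus strand: atgctttgagatcgccacaaacCTACCTCA
Lin28b, chr10:45381022-45381051, minus strand: tcccttcacccgggcgggaagtCTACCTCA
Trim71, chr9:114512472-114512501, minus strand: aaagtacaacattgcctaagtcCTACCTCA
Trim71, chr9:114512376-114512405, minus strand: cctgtgaagtgataatttctatCTACCTCA
Igdcc3, chr9:65185700-65185729, plus strand: gagctgttgtgactctcagcacCTACCTCA
Igdcc3, chr9:65185780-65185809, plus strand: cccacagagcccgaaagcactcCTACCTCA
Igf2bp1, chr11:95961778-95961807, minus strand: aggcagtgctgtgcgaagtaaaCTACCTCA
Hmga2, chr10:120364224-120364253, minus strand: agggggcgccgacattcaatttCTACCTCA
The windows share the match and little of the sequence before it.

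Igdcc3 stood outside the list and was named for its change. It was the only gene outside the list picked to have its sites shown, so they are no independent evidence. This cell adhesion gene (chromosome 9, 65141189 to 65185872) was listed at 89.9, 87.7, 46.5 and 7.67 TPM (change -3.32), and its 3′ UTR of 538 bases held 2 matches of 8 letters. Lin28a held 2 such matches, Trim71 4, Igf2bp1 and Nr6a1 3 each, and Lin28b and Hmga2 1 each beside 3 of 7 letters.

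Across all tested genes with a 3′ UTR (10643), the 7-letter match was present in 1118 and the 8-letter match in 397 (3.73%). The median change was -0.02 in the 9525 genes without a match, -0.08 in those with 1 or more 7-letter matches and -0.11 in those with an 8-letter match. Past 2-fold lower at E13.5 were 4.05% of genes without a match, 5.10% with a 7-letter match and 5.29% with an 8-letter match, against 4.16% of all. Past 2-fold higher were 2.33, 2.95 and 3.02% of the same groups, so both directions were more frequent among genes with a match. Of the 3837 genes without a match whose 3′ UTR was at least as long as the lower quartile of those with an 8-letter match, 3.67% were past 2-fold lower and 2.06% higher, with a median change of -0.05. With 2 or more 8-letter matches there were 21 genes, with a median change of -0.23. Of them, 4 were past 2-fold lower (Lin28a, Igdcc3, Trim71 and Fignl2) and none was past 2-fold higher. Lin28a and Trim71 are on the list above, and Igdcc3 and Fignl2 were named for their falls. These 4 are therefore no independent evidence. Genes with matches also had longer 3′ UTRs, with medians of 2340 bases for a 7-letter match and 1071 bases for none. A match is a string of letters and not a measured binding site.

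**Figure D5:**
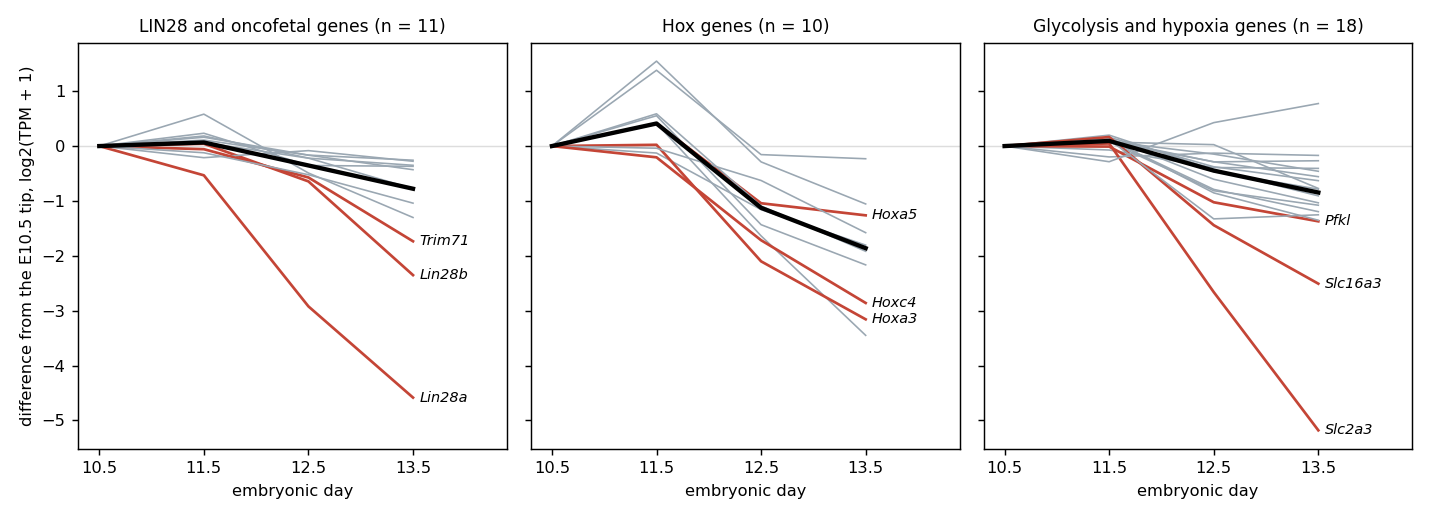
Difference from the E10.5 tip in log2(TPM + 1) against embryonic day for each tested gene of 3 lists; black lines are list medians, and, of the genes whose values the text gives, the 3 with the lowest E13.5 values in each list are red and named (Hox genes: Hoxa3, Hoxc4 and Hoxa5). Medians stay near or above 0 at E11.5 and lie below 0 at E12.5 and E13.5.

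Hox genes pattern the body axis and the foregut along its length. Of 18 listed, 10 reached 5 TPM, all 10 had a negative slope, 9 were past 2-fold lower at E13.5 and the median change was -2.08 (smallest limma adjusted p = 0.20). The median was -3.83 without the E10.5 tip and -1.30 with a pseudocount of 5 TPM. Without a filter on low values it was -1.58 over 16 genes. Hoxa3, Hoxc4 and Hoxa5 passed the filter only through the earlier pair of tips, which favours a negative slope. Hoxa3 was listed at 13.4, 13.6, 2.35 and 0.61 TPM (change -3.48). Hoxc4 was listed at 12.21, 10.46, 3.02 and 0.82 TPM (change -3.03). Both were lower at E12.5 and E13.5 than in either earlier tip.

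Others peaked at E11.5. Hoxb3 was listed at 7.00, 22.4, 5.55 and 2.85 TPM and Hoxb5 at 6.43, 18.4, 5.67 and 5.33 TPM. Hoxa5, required for normal lung formation, was listed at 9.75, 13.3, 4.22 and 3.48 TPM. Lung mesenchyme also expresses Hox genes, and mesenchymal transcription factors had a like course: Tbx5 was listed at 14.6, 47.7, 7.88 and 3.45 TPM and Foxf1 at 25.4, 60.6, 11.1 and 9.56 TPM. Of the 18 mesenchymal markers 13 were tested, 6 were past 2-fold lower and 2 past 2-fold higher at E13.5, with a median change of -1.14 (-2.16 without the E10.5 tip and -0.62 without the E13.5 tip). Their part in the Hox values was not tested.

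Glycolysis and hypoxia-responsive genes were lower at the later stages. Glycolysis turns glucose into pyruvate and lactate, and many of its genes are targets of hypoxia-inducible factors. Slc2a3, the high-affinity glucose transporter GLUT3, was listed at 696, 719, 109 and 18.2 TPM, a change of -5.48 (limma adjusted p = 0.18). The first pair of tips were alike, E12.5 lay far below them and E13.5 below that. Slc16a3, which exports lactate, was listed at 145, 163, 52.8 and 24.7 TPM (change -2.74), and Slc2a1, the transporter GLUT1, at 101, 107, 57.2 and 47.5 TPM (change -1.24).

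The enzymes differed less. Ldha, lactate dehydrogenase A, was listed at 1522, 1645, 880 and 664 TPM (change -1.35). Aldoa, an aldolase, was listed at 862, 946, 477 and 337 TPM (change -1.51), and Pfkl, a phosphofructokinase, at 203, 201, 99.2 and 77.8 TPM (change -1.54). Eno1 was listed at 837, 926, 550 and 408 TPM and Pgk1 at 519, 596, 385 and 276 TPM. Each was alike at E10.5 and E11.5 and lower at both later stages. Gapdh, in contrast, was listed at 3667, 3197, 3355 and 3258 TPM (change -0.13), and its slope changed sign without the E10.5 tip (0.04).

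All 18 listed genes were tested and 17 had a negative slope. With an unadjusted p under 0.05, 13 were lower, as were 5.99% of all genes. Past 2-fold lower at E13.5 were 8 (44.4%, against 5.13% of all genes), and none was past 2-fold higher. The median change was -0.94, and it ran from -1.50 without the E10.5 tip to -0.67 without the E13.5 tip. Egln3, a hypoxia-induced hydroxylase, had the positive slope, at 4.40, 3.43, 6.26 and 8.24 TPM. The mesenchymal and endothelial sums were highest at E11.5, and the red cell sum was highest at E12.5, where Slc2a3 was already low. Their part in these values was not tested.

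Promoters of Ldha and Slc16a3, the enzyme and the exporter of lactate, are shown to let the motif of the list be seen in its sequence. Each is 300 bases of RefSeq sequence (GRCm38.p6) from 250 bases before to 50 after the annotated start, on the plus strand of the genome, with ACGTG on either strand, the core of the hypoxia response element, in capitals. Overlapping matches on both strands, as in a palindrome, form 1 run of capitals.
Ldha, chr7:46845554-46845853: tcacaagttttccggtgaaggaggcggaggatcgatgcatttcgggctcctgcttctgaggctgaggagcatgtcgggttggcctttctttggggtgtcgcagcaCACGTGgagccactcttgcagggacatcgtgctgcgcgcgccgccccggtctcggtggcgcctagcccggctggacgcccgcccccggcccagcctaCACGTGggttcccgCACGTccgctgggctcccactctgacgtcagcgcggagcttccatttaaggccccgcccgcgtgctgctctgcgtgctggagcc
Slc16a3, chr11:120948817-120949116: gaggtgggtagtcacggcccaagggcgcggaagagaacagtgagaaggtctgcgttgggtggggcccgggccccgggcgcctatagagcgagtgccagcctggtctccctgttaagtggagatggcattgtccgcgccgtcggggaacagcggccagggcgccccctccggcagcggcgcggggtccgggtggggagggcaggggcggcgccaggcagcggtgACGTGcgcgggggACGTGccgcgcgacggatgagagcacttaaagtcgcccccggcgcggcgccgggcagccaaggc
The Ldha window held 5 matches in 3 runs and the Slc16a3 window 2.

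Of the 17 members of the list with a promoter in the table, 13 (76.5%) held the motif in at least 1 of their promoters, against 30.4% of the 8701 tested genes with one. Across all 32851 promoters in the table it was 19.6%, and a gene with more promoters had more chances to hold the motif. The list was made of known glycolysis and hypoxia-responsive genes, so a larger share with this motif was built into its choice. The share is therefore no evidence about these tips. Slc2a3 had no promoter in the table. Pfkl, Tpi1, Eno1 and Gpi1 held none in their windows, and their levels at E13.5 were also below those at E10.5. Gapdh held 1. A match is a description of letters and not of binding.

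The median step of signalling genes from E11.5 to E12.5 was -0.72 for WNT, -0.62 for hedgehog, -0.34 for FGF, -0.33 for BMP and TGF-beta and -0.19 for Notch genes, beside -0.11 for all genes. Of the WNT genes, 15 of 18 were tested, 4 were past 2-fold lower, 1 past 2-fold higher and the median change was -0.70, with -1.30 when the E10.5 tip was left out and -0.37 when the E11.5 tip was. Dkk1, a secreted WNT inhibitor, was listed at 10.9, 12.4, 2.67 and 0.13 TPM (change -3.62). The WNT-responsive transcription factor genes Lef1, at 23.2, 27.3, 16.6 and 8.82 TPM, Tcf7, at 43.0, 48.5, 24.9 and 22.1 TPM, and Sp5, at 74.0, 89.1, 46.0 and 39.5 TPM, were lower in both later tips. Axin2, a feedback inhibitor and common readout of WNT, was listed at 29.0, 33.7, 22.5 and 25.2 TPM. Rnf43, which removes WNT receptors, was listed at 25.3, 19.8, 30.3 and 53.5 TPM, highest at E13.5. Wnt5a, made largely by lung mesenchyme, was listed at 4.81, 8.78, 1.94 and 0.98 TPM. The mesenchymal sum was also highest at E11.5, and its part in this value was not tested.

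In the hedgehog pathway the ligand gene Shh, given above, and the genes of the signal transducer Smo and the receptor Ptch1 differed little between tips. Smo was listed at 106, 120, 105 and 116 TPM and Ptch1 at 50.4, 55.9, 44.8 and 43.5 TPM. Gli1, a target and effector that mesenchyme expresses, was listed at 10.2, 17.8, 4.04 and 3.48 TPM, and Hhip at 7.81, 13.2, 4.49 and 3.56 TPM. Of 8 genes, 2 were past 2-fold lower at E13.5 and the median change was -0.68, which became -1.11 without the E10.5 tip and -0.25 without the E11.5 tip. The part of the mesenchymal signal in these values was not tested.

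FGF pathway genes had a median change of -0.30 over 15 tested of 17, and it moved to -0.64 without the E13.5 tip and to -0.17 and -0.11 without the E11.5 and the E12.5 tip. The inhibitor genes Dusp6, at 53.0, 58.3, 33.6 and 36.4 TPM, and Spry2, at 42.2, 51.1, 27.6 and 40.8 TPM, were lowest at E12.5. Fgf9, a ligand of the epithelium, was listed at 6.11, 4.79, 3.58 and 1.14 TPM. Fgfr3 was listed at 11.4, 11.2, 18.4 and 35.2 TPM, the one member past 2-fold higher.

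BMP and TGF-beta genes had a median change of 0.01 over 17 tested of 22. Without the E10.5 tip it was -0.61, and -0.42 when genes were kept at 1 TPM or more in at least 2 tips. The BMP target genes Id1, at 75.4, 78.5, 22.0 and 30.9 TPM, and Id3, at 81.0, 101, 44.3 and 48.2 TPM, and the inhibitor gene Smad7, at 28.4, 18.1, 10.2 and 11.9 TPM, were lower at the later stages. Tgfb3, a TGF-beta ligand, was listed at 3.79, 4.07, 7.28 and 21.9 TPM (change 2.24), highest at E13.5. It passed the filter only through the later pair of tips. Of the Notch genes 9 of 14 were tested, 3 were past 2-fold higher and 1 lower. Lfng, which modifies Notch receptors, was listed at 3.18, 4.04, 8.21 and 15.4 TPM, and the ligand gene Jag1 at 9.64, 10.0, 3.97 and 3.08 TPM.

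Genes of the basement membrane and of adhesion to it leaned higher. Of 23, 22 were tested, 16 had a positive slope, 10 had an unadjusted p under 0.05 with a higher level and 2 with a lower one, and the median change was 0.44 (0.23 without the E13.5 tip). Among the laminin subunit genes, Lamb3 was listed at 6.41, 10.3, 22.5 and 37.3 TPM, higher at every step, with a change of 2.45 (limma adjusted p = 0.144). Lama3 was listed at 46.2, 49.0, 51.4 and 75.0 TPM. Lama5 was listed at 106, 129, 131 and 216 TPM and Lamc1 at 172, 203, 200.4 and 327 TPM. The linker gene Nid2 went the other way, at 28.1, 30.6, 5.24 and 4.03 TPM (change -2.98), and so did the nephronectin gene Npnt, at 48.6, 51.9, 26.2 and 23.5 TPM.

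Tight junction genes had a median change of 0.27 over 12 tested, and 1 was past 2-fold higher (8.33%, against 3.14% of all genes). The median was 0.01 without the E13.5 tip and 0.15 without a filter on low values. Cldn10, a claudin that forms ion pores, was listed at 1.03, 0.70, 4.65 and 17.5 TPM (change 3.39). It passed the filter only through the E13.5 tip, which favours a positive slope. Among 9 tested ion and fluid transport genes, Cftr, the chloride channel of fluid-secreting epithelia, was listed at 1.92, 1.16, 9.48 and 22.1 TPM (change 3.37), and Scnn1a, a subunit of the sodium channel that absorbs fluid, at 12.1, 6.31, 4.17 and 2.29 TPM (change -1.95). Cftr passed the filter only through the later pair of tips. The median of the transport list was 0.02, and it ran from -0.14 without the E13.5 tip to 0.15 without the E11.5 tip.

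Proliferation genes leaned slightly higher. Of 28 cell cycle and replication genes 27 were tested, 22 had a positive slope and 9 were higher at each step. The median change was 0.17 (0.28 without the E13.5 tip). None was past 2-fold higher, and 1 was past 2-fold lower (3.70%, against 5.13% of all genes). Mki67 was listed at 98.2, 99.6, 114 and 124 TPM and Top2a at 350, 390, 412 and 428 TPM. Of the 5 with a negative slope, 2 were lower at each step. The member past 2-fold lower was the cell cycle inhibitor gene Cdkn1a, a p53 target, at 21.8, 14.8, 8.25 and 2.55 TPM (change -2.64), lower at every step. The related inhibitor gene Cdkn1b was listed at 14.7, 17.4, 19.9 and 21.5 TPM.

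Imprinted genes, expressed from 1 parental allele and many of them growth regulators, had a median change of -0.53 over 20 tested (-0.88 without the E10.5 tip). Of these, 17 had a negative slope and 6 (30%) were past 2-fold lower, against 5.13% of all genes. None was past 2-fold higher, against 3.14% of all genes. Peg10 was listed at 113, 136, 36.4 and 11.52 TPM (change -3.43), Mest at 215, 278, 110 and 77.1 TPM and Peg3 at 415, 436, 245 and 203 TPM. They were high in the first pair of tips and lower in the later pair. The growth factor gene Igf2 was listed at 1554, 1475, 1282 and 1328 TPM, the noncoding H19 at 3533, 3322, 2859 and 2932 TPM, and Nnat at 284, 337, 411 and 515 TPM, higher at every step.

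Further lists are set beside the median of -0.03 for all genes. Fatty acid and cholesterol synthesis genes had a median change of -0.24 (-0.76 without the E10.5 tip), and 17 of 18 had a negative slope. DNA methylation and Polycomb genes had a median change of 0.01. Ribosomal protein genes had a median of 0.07, and Rps2 and Rps18, each with processed copies that can take their reads, ranged from 114 to 1688 TPM and from 63.8 to 621 TPM. Immediate early and stress genes lay farther from all genes, with a median of 0.82 over 7 tested of 15. It was 0.49 when genes were kept at 1 TPM or more in at least 2 tips. Of the 7, 5 had a positive slope and 2 a negative one. Jun was listed at 78.9, 74.6, 115 and 136 TPM and Fos at most at 1.34 TPM.

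Single tips also held genes of their own. At E11.5 the genes farthest above the other tips were Cacnb4, a calcium channel subunit gene, at 45.3 TPM against at most 0.28 elsewhere, and Lars2, the mitochondrial leucyl-tRNA synthetase gene, at 1538 TPM against 65.8 to 99.1. Rmrp, the RNA of a nuclear and mitochondrial RNase, followed at 55.1 TPM against 0, 0 and 5.12, with the histone gene Hist1h2ai at 13.9 TPM against 0, the blood cell GTPase gene Rac2 at 15.8 against at most 0.34, and Rsc1a1 at 7.59 TPM against 0. At E12.5 they were the small nucleolar RNA gene Snora73b, at 29.9 TPM against 0, the muscle gene Mylpf, at 18.1 against at most 2.71, the platelet gene Pf4, at 9.51 against at most 1.83, the lymphoid factor gene Ikzf1, at 9.53 against at most 1.98, the globin gene Hba-a2, at 915 against at most 291, and Parp2, at 147 against at most 47.9. Hba-a2 and Hba-a1 are near-identical copies, so their split is uncertain.

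Red cell genes differed between stages in kind as well as in sum. The embryonic beta-like globins Hbb-bh1 and Hbb-y summed to 3797, 2952, 5601 and 891 TPM, and the adult beta globins Hbb-bs and Hbb-bt to 64.6, 63.7, 340 and 241 TPM. The adult share of these beta globins was 1.67, 2.11, 5.72 and 21.3%, higher at every stage. Hba-x, the embryonic alpha-like globin, was listed at 1490, 1256, 2083 and 159 TPM, lowest at E13.5. With 4 samples an exact permutation test of a single value over stage has a smallest two-sided p of 0.0833, so no such p is given.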

How the data were processed

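The authors deposited TPM per gene. The submitters' processing notes name RSEM, Bowtie2 and the build mm10; versions are not given in the sources used here. Per the labels, RNA was extracted with TRIzol and libraries came from a Vazyme mRNA kit. Counts were not used here, so depth and its precision are unknown. The labels do not say whether a tip library pools embryos. Tip columns were matched by title, and no column was left without a sample.

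Levels were taken as log2(TPM + 1), and genes with 5 TPM or more in at least 1 tip were kept. A slope on embryonic day was fitted with limma 3.58.1 in R 4.3.3 (lmFit, eBayes with a mean-variance trend, 2 residual degrees of freedom per gene), two-sided, with Benjamini-Hochberg adjustment over 11546 genes. The fit was tested on simulated data. Steps between single libraries were counted past 2-fold, without a test. Coordinates are from GENCODE M21 (GRCm38), to which all 55260 symbols matched. Tables and figures used Python 3.11.15 with pandas 2.3.3, numpy 2.4.6 and matplotlib 3.10.9.

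The 32 gene lists (471 genes, 357 tested) and the members were chosen with earlier results of these data known. Some single genes of these lists are not reported here. Because fewer than 8 genes were called in a direction, named genes are the 12 with the largest change each way among those moving one way at all 3 steps and at least 1 log2 unit from first to last tip, without predicted, clone, Rik, ribosomal protein copy or mitochondrial genes. To these were added the 6 farthest above the other tips at E11.5 and at E12.5 and, as values, the listed genes of tips, airways, alveolar cells and LIN28. Mia, Gm4737, genes called only under an alternative and members named from other lists were chosen after their values were seen. Alternatives were other pseudocounts, filters, scalings, variance models and each tip left out. Slopes with a tip left out were also multiplied by 3 days and had fewer residual degrees of freedom.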

Additional observations from a re-analysis of the deposited data

How the results depend on the processing

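No paired analysis was possible because each stage has 1 library and the labels give the tips no replicate numbers. Of the 2109 slopes of 164 named genes under alternatives, 2079 kept their direction and their side of the threshold. The variance-model alternatives cannot change a slope, and at most 5 genes were called under any setting. Much of this count was therefore fixed in advance. The count of genes with a slope, 0, was 1 with robust variance moderation and ran from 0 to 5 with each tip left out; the unadjusted count ran from 559 (without E13.5) to 1332 (without E10.5). All other alternatives gave 0. The cause was not tested.

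A pseudocount of 5 TPM gave 317, 398, 252 and 516 genes past 2-fold for E10.5 to E11.5, E11.5 to E12.5, E12.5 to E13.5 and E10.5 to E13.5, and 78, 85, 43 and 92 genes set apart from E10.5 to E13.5. Without a filter on low values these were 1715, 2037, 1503 and 2158, and 412, 549, 344 and 491, with more genes admitted.

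Slopes of named genes that changed sign when 1 tip was left out are given as the lowest and highest of the 4 values: Rmrp -4.80 (without E10.5) and 2.24 (without E11.5), Pf4 -0.98 and 3.72, Ikzf1 -0.12 and 2.73, Parp2 -0.022 and 2.67 (these 3 without E10.5 and without E13.5), Nkx2-1 -0.11 (without E10.5) and 0.034 (without E11.5), Xist -0.42 (without E12.5) and 0.75 (without E13.5), Gm37614 -12.6 and 6.31 (without E10.5 and without E13.5), Rpl14-ps1 -8.21 (without E13.5) and 3.68 (without E10.5). For Sox9 they were -0.027 (without E13.5) and 0.16 (without E12.5), for Fgfr2 -0.15 and 0.77 and for Pdpn -0.22 and 0.82 (both without E13.5 and without E10.5), for Bmp4 -0.87 and 0.32 and for Smo -0.077 and 0.11 (both without E10.5 and without E11.5), and for Gapdh -0.19 (without E13.5) and 0.041 (without E10.5). For the globins Hba-a1, Hbb-y and Hba-x they were -1.32, -1.74 and -4.46 without E10.5 and 1.32, 1.39 and 0.73 without E13.5. Median-ratio rescaling gave 0.052 for Nkx2-1, and a pseudocount of 5 TPM gave -0.16 for Rmrp. The cause was not tested.

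With 1 library per stage and unknown depth, a difference between 2 tips has no error of its own, and levels of a few TPM are the least certain.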

Other observations

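Apart from Acta2, Tbx5 and Foxf1, the genes below moved one way at all 3 steps and differed at least 2-fold between E10.5 and E13.5. They were picked after their values were seen, and none passed the limma test. Single genes of the extracellular matrix lay on both sides. Fbn2, the microfibril protein fibrillin 2, was listed at 90.0, 112, 183 and 299.6 TPM (limma adjusted p = 0.144). Smoc2, a matricellular calcium-binding protein, was listed at 11.0, 28.9, 44.9 and 89.2 TPM. Both were higher at every step. Thbs1, thrombospondin 1, was listed at 256, 278, 435 and 715 TPM, and Sparc at 212, 241, 310 and 436 TPM. The elastic fibre genes Eln, at 1.12, 1.22, 3.18 and 7.55 TPM, and Loxl1, at 4.62, 5.13, 8.36 and 10.3 TPM, were lower in level and had the same order of stages. In the opposite order, the hyaluronan synthase gene Has2 was listed at 19.2, 13.6, 3.73 and 2.78 TPM, Emid1 at 74.3, 51.5, 33.1 and 30.3 TPM and Serpinf1 at 79.8, 60.8, 40.8 and 34.8 TPM. Contractile genes also differed in direction. Myl9 was listed at 9.82, 20.5, 29.4 and 38.8 TPM and Cnn1 at 1.51, 3.34, 5.44 and 6.49 TPM, but the myosin light chain gene Myl7 at 12.3, 5.46, 4.46 and 1.60 TPM. The smooth muscle marker Acta2, which did not move one way at all steps, was listed at 9.09, 14.7, 13.6 and 26.0 TPM and Vim at 117, 163, 198 and 254 TPM, while the mesenchymal factor genes Tbx5 and Foxf1 were lowest at E13.5. The part of mesenchymal cells in these values was not tested.

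Genes that handle retinoic acid lay on both sides. Beside Aldh1a1, the receptor gene Rarg was listed at 13.7, 15.6, 26.4 and 47.6 TPM. The binding protein gene Crabp2 was listed at 154, 141, 100.2 and 54.4 TPM and Rdh10, which makes retinal from retinol, at 22.6, 22.6, 12.9 and 8.86 TPM. Tbx1, a pharyngeal transcription factor gene, was listed at 8.69, 8.72, 32.1 and 52.8 TPM, the opposite order to Nkx2-6. Sall4, a pluripotency factor gene, was listed at 31.4, 22.1, 20.9 and 4.37 TPM, and the carbonic anhydrase gene Car14 at 84.4, 71.8, 37.7 and 9.06 TPM.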
